A study of Mus musculus with 6 samples.

Results

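Transcripts of the angiopoietin-Tie system and of 2 angiopoietin-like (ANGPTL) proteins were examined in lung endothelial cells (ECs) of WT and leene-KO mice. The genes were chosen by name, as the 2 angiopoietins Angpt1 and Angpt2, the receptors Tek and Tie1, the phosphatase Ptprb, the transcription factor Foxo1, Angptl2, Angptl6 and the matrix protein Svep1. Each of the 9 symbols matched 1 row among the 47729 genes of the count tables. The comparison asked which EC transcripts differ when leene, a long noncoding RNA locus, is deleted in hypertensive mice. Both groups were male mice, 14 weeks old, on normal chow, that received angiotensin II (AngII) at 1000 ng/kg/min from an implanted pump for 2 weeks. The WT group had 3 libraries and the KO group 3 libraries. There was no group without AngII, so the effect of AngII itself is not measured here. The deletion is present in all cells of the KO mice, on a C57BL6 background.

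The labels name CD31 (Pecam1) as the antigen used for enrichment, and the study's methods name CD144 (Cdh5). The labels also say that cells of 3 mice per group were pooled, so it is not settled whether a library is 1 animal or part of a pool, and p-values measure the spread between libraries, which may be technical. Total counts ran from 24464324 to 35184063 per library, of which 37.4% to 54.5% fell on mitochondrial genes. Pecam1 was at 312 to 582 CPM (the count of a gene relative to the size of its library as scaled by edgeR's TMM method) and Cdh5 at 178 to 752 CPM, and all 12 genes of an EC marker list had counts in every library. The summed level of these 12 genes was 1983 to 3498 CPM in WT and 2214 to 3580 CPM in KO. Transcripts of other lung cells were also present in every library. In each library the sums of 5 alveolar type II genes and of 4 airway genes were above the EC sum. The summed level of 5 alveolar type II genes was 4931, 46360 and 14390 CPM in WT replicates 1, 2 and 3 and 36540 to 44920 CPM in KO, and WT replicate 2 was the highest of all libraries. Summed B cell genes (8.27 to 20.8 CPM in WT, 67.7 to 72.8 CPM in KO) and T cell genes (2.18 to 4.37 CPM in WT, 5.27 to 8.55 CPM in KO) were higher in each KO than in each WT library, and all 5 genes of either list had counts in every library. At an adjusted p under 0.05 (edgeR), 2 B cell and 0 T cell genes were higher in KO, against 0.109% of all genes tested in either direction. At an unadjusted p under 0.05, 5 B cell and 2 T cell genes were higher, against 5.62%. The part of these cells in the results was not tested. In bulk RNA, fewer cells of a type and less RNA per cell cannot be told apart.

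Angiopoietins are secreted ligands of Tek, the receptor tyrosine kinase also called Tie2. Angpt1, made mainly by perivascular and mesenchymal cells and also stored in platelets, activates Tek and keeps vessels quiescent, whereas Angpt2, made and stored by ECs, can act as an antagonist and is known to increase in activated or regressing vessels. Tie1 is a related receptor that binds no angiopoietin directly and modulates Tek, and Ptprb (VE-PTP) removes phosphate from Tek at EC junctions. Signaling through Tek activates AKT, which keeps Foxo1 out of the nucleus, and Angpt2 is itself a known target of Foxo1. Svep1 is a large extracellular matrix protein required for lymphatic vessels. The ANGPTL proteins resemble angiopoietins in structure but do not bind Tek. Angptl2 is known as an inflammatory factor, and Angptl6 is the angiopoietin-related growth factor (AGF), which the study also measured in the heart by qPCR.

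Promoter sequences from RefSeq (GRCm38.p6) were available for 6 of the 9 genes, namely Tek, Tie1, Foxo1, Angptl2, Angptl6 and Svep1. Windows of 250 bases before the RefSeq start site were read, and those of Foxo1 and Angptl2 are shown. The Foxo1 window belongs to the transcription factor of the pathway, and the Angptl2 window held the only match of a longer ETS motif described after the sequences. Capitals mark the core GGAA of binding sites of ETS factors, a family that includes the EC factor Erg, or its reverse complement TTCC. The windows lie at chr3:52268087-52268336 (Foxo1, plus strand) and chr2:33215711-33215960 (Angptl2, plus strand), and each is written 5′ to 3′ on the strand of its gene.
Foxo1: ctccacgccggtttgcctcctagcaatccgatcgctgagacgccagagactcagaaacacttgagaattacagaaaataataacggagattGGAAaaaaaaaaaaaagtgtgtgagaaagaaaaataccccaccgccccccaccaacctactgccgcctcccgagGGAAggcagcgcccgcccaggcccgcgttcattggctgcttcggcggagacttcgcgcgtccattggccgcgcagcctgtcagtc
Angptl2: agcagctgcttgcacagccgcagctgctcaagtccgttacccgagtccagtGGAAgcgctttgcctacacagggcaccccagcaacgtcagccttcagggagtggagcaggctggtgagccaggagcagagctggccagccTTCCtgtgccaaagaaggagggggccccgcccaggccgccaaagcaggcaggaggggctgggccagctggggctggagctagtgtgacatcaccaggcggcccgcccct

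The core was present 2 times in each of these windows, counting both strands. It was present 2 times before the RefSeq start of Tek, 7 times before that of Tie1, 6 times before that of Svep1 and 3 times before that of Angptl6. The RefSeq and GENCODE start sites differ, so that most of the Tie1 window and all of the Svep1 window lie within the span that GENCODE gives the gene. Over all 32851 promoters used here, the median was 3 copies and the 95th percentile 6, and 93.45% held at least 1. A FOXO motif (GTAAACA or its reverse complement, in 3.17% of all promoters) and a longer GATA motif (AGATAAG, in 2.74%) had no match in the 6 windows. A longer ETS motif (CAGGAAG, in 10.8%), which contains the core, had its only match in the Angptl2 promoter. These matches describe letters in these windows and were not tested for binding.

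Levels of different genes were compared per length, as CPM per kilobase of exon. Ptprb was highest at 44.2 ± 7.90 (SD over 6 libraries), followed by Tek at 32.2 ± 8.87, Tie1 at 22.4 ± 7.18 and Foxo1 at 7.22 ± 0.662. The next were Angpt1 at 3.90 ± 1.06, Angptl2 at 2.90 ± 1.08 and Angpt2 at 2.13 ± 1.11, and the lowest were Svep1 at 0.564 ± 0.189 and Angptl6 at 0.247 ± 0.119 CPM per kilobase. Receptors and their phosphatase thus stood far above both ligands in these libraries. Of the neighbors in this order, the ranges of Tie1 and Foxo1 and those of Foxo1 and Angpt1 did not overlap. The ranges of all other neighbors overlapped, although within a library Ptprb was above Tek, Tek above Tie1, Angpt1 above Angptl2 and Angpt2 above Svep1 in 6 of 6 libraries. Angptl2 was above Angpt2, and Svep1 above Angptl6, in 5 of 6.

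**Figure D1:**
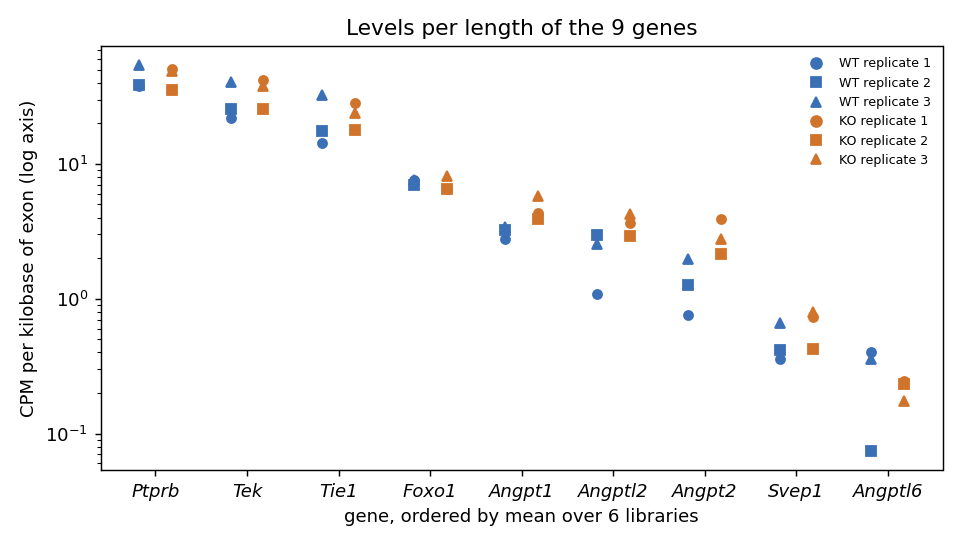
Level of each of the 9 genes in CPM per kilobase of exon (log axis), ordered by the mean over all libraries; blue points are the WT and orange points the leene-KO libraries, with a shape for each replicate number. Ptprb, Tek and Tie1 lie between 14.2 and 54.0, all above Foxo1, and Angptl6 lies at or under 0.402.

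None of the genes passed the threshold between KO and WT. Across the 14625 genes that passed edgeR's filter on low counts, 16 (0.109%) had a p under 0.05 after Benjamini-Hochberg adjustment in edgeR's quasi-likelihood test. Of the 9 genes, 8 were tested and 0 called, and the other one, Angptl6, had too few counts. The test used genotype as the only term. At an unadjusted p under 0.05, 2 of the 8 were higher in KO, against 5.62% of all genes tested, and 0 were lower, against 4.68%. For the same 2 genes, Angpt2 and Angpt1, the 3 KO values all exceeded the 3 WT values, a pattern shown by 8.59% of all genes tested, and 0 genes showed the opposite, against 9.2%. The median log2 fold change of the 8 was 0.36, beside 0.033 over all genes tested. The genes were chosen with earlier results of these data known, so these shares and medians do not test the group. DESeq2, limma-voom and edgeR's likelihood ratio test also called 0 of the 8. Of these, only DESeq2 also tested Angptl6, and it did not call it (log2 fold change -0.39, adjusted p = 0.934, DESeq2).

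**Figure D2:**
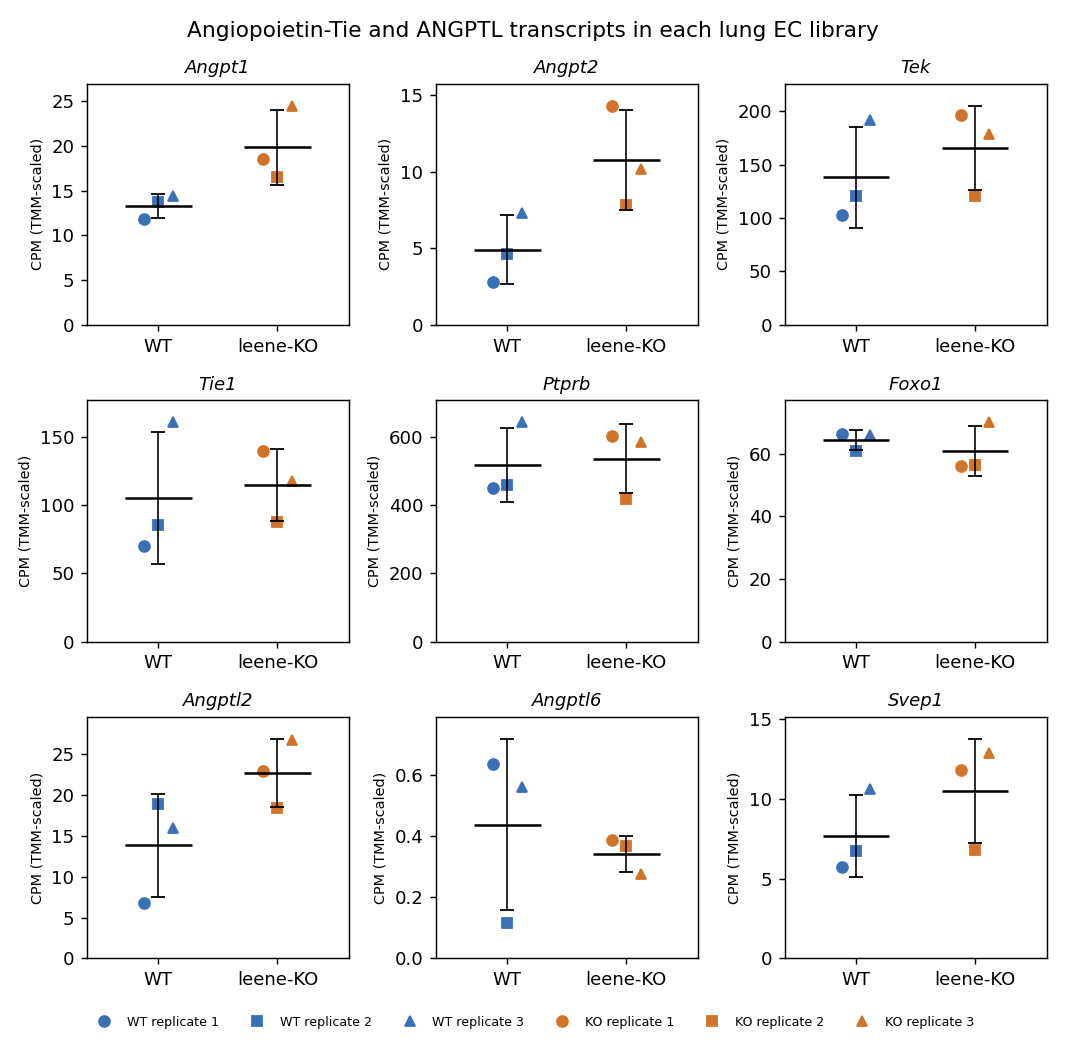
CPM of each gene in the WT (blue) and leene-KO (orange) libraries, with a shape for each replicate number; horizontal bars are means and error bars SDs over 3 libraries. For Angpt1 and Angpt2 the KO libraries all lie above the WT libraries, while the groups overlap for the other 7 genes.

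Among the ligands, Angpt2 (ENSMUSG00000031465, chr8:18690263-18741562 on GRCm38, minus strand) had a level of 2.79, 4.67 and 7.30 CPM in the WT libraries (given here and throughout in the order of replicates 1, 2 and 3). In the KO libraries it had 14.3, 7.87 and 10.2 CPM. The WT libraries rested on 114, 159 and 156 counts and the KO libraries on 334, 214 and 295 counts. The lowest KO library was only slightly above the highest WT library. The WT mean was 4.92 ± 2.27 CPM (SD, n = 3), and the KO mean 10.8 ± 3.28 CPM (SD, n = 3). Angpt2 had the highest log2 fold change of the group, 1.15 (standard error 0.37, 95% interval 0.30 to 2.00), or 2.22-fold, with an unadjusted p of 0.0147 and an adjusted p of 0.383 in edgeR's quasi-likelihood test. Over 13 other tests, scalings and filters the log2 fold change ran from 1.0 to 1.30 and the adjusted p from 0.0511, without a filter on low counts, to 0.956. With 1 library left out, the log2 fold change ran from 0.85, without WT replicate 1, to 1.52, without WT replicate 3. Angpt2 lies inside the span of Mcph1, which is on the opposite strand, and counting used strand.

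Angpt1 (ENSMUSG00000022309, chr15:42424727-42676977, minus strand) reached 11.8, 13.8 and 14.4 CPM in WT. In KO it reached 18.5, 16.5 and 24.5 CPM. The WT values lay close together and below all KO values, with KO replicate 3 the highest. The means were 13.3 ± 1.36 CPM (SD, n = 3) and 19.8 ± 4.16 CPM (SD, n = 3). The log2 fold change was 0.58 (standard error 0.18, 95% interval 0.16 to 1.0) or 1.49-fold, with an unadjusted p of 0.0134 and an adjusted p of 0.374 in the same test. Omitting single libraries gave values from 0.39 to 0.67. When libraries were scaled to their EC marker counts it was 0.39 with an unadjusted p of 0.335 (edgeR). That scaling also moved the median of all genes tested from 0.033 to -0.16.

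Markers of cells that carry Angpt1 were read beside it. The summed level of 5 platelet genes was 27.7 to 42.4 CPM in WT and 38.1 to 75.9 CPM in KO. At an unadjusted p under 0.05 (edgeR), 4 of the 5 were higher in KO, against 5.62% of all genes tested, and 0 were called. All 5 had counts in every library. The sum of 8 pericyte and smooth muscle genes was 227 to 280.2 CPM in WT and 186 to 260 CPM in KO. Of these 8 genes 0 were called and the median log2 fold change was -0.17. At an unadjusted p under 0.05 (edgeR) 2 were lower, against 4.68% of all genes tested, with no overlap between the groups, against 9.2%. They were the contractile genes Tagln (-1.06) and Acta2 (-0.53). The 4 above 0 were Pdgfrb (0.60), Cspg4 (0.54), Notch3 (0.35) and Rgs5 (0.0046), 0 of them at an unadjusted p under 0.05. These genes were named after their values were seen. The sum of 10 fibroblast genes was 492 to 1208 CPM in WT and 822 to 1082 CPM in KO. The fibroblast sum was lowest in WT replicate 1. The part of these cells in the values of Angpt1 was not tested.

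Each ligand was next set against other transcripts of its own library, which needs no library size. The log2 ratio of Angpt2 to Cdh5 counts was -5.99, -6.28 and -6.30 in the WT libraries. It was -5.71, -5.43 and -5.61 in the KO libraries. All KO values were above all WT values, with a difference of 0.61 (p = 0.1, two-sided exact permutation test, the lowest that 3 libraries against 3 allow). With Pecam1 as the denominator the difference was 1.11, with the sum of 12 EC markers 1.01, with the fibroblast sum 1.0 and with the pericyte and smooth muscle sum 1.36. The groups did not overlap for any of these denominators (exact p = 0.1 for each). These ratios are not independent, since all share the Angpt2 counts and the EC sum includes Cdh5 and Pecam1. The pericyte and smooth muscle sum includes Tagln and Acta2, which were lower in KO. For such ratios, here and below, the share of all genes without overlap was not counted.

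Angpt1 did not keep such a separation. Its log2 ratio to Cdh5 was -3.91, -4.73 and -5.32 in WT and -5.34, -4.36 and -4.35 in KO, a difference of -0.031 (exact permutation p = 0.9). To Pecam1 the difference was 0.47 (exact p = 0.2), to the EC marker sum 0.38 (exact p = 0.3) and to the fibroblast sum 0.37 (exact p = 0.4). Only against the pericyte and smooth muscle sum did the groups not overlap, with a difference of 0.73 (exact p = 0.1), and that sum includes the 2 lower genes named above. Cdh5 itself varied widely, at 178, 365 and 577 CPM in WT and 752, 340.0 and 499 CPM in KO (log2 fold change 0.51, standard error 0.45).

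The ratio of Angpt2 to Angpt1 per length was 0.273, 0.391 and 0.584 in WT and 0.894, 0.550 and 0.479 in KO. The groups overlapped (difference of 0.64 on the log2 scale, exact permutation p = 0.3). Relative to its receptor, Angpt2 was at 0.0347, 0.0495 and 0.0486 of the level of Tek per length in WT. In KO it was at 0.0931, 0.0831 and 0.0726, with no overlap between the groups (difference of 0.91 on the log2 scale, exact permutation p = 0.1). For Angpt1 to Tek the groups overlapped (difference of 0.28, exact permutation p = 0.5).

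**Figure D3:**
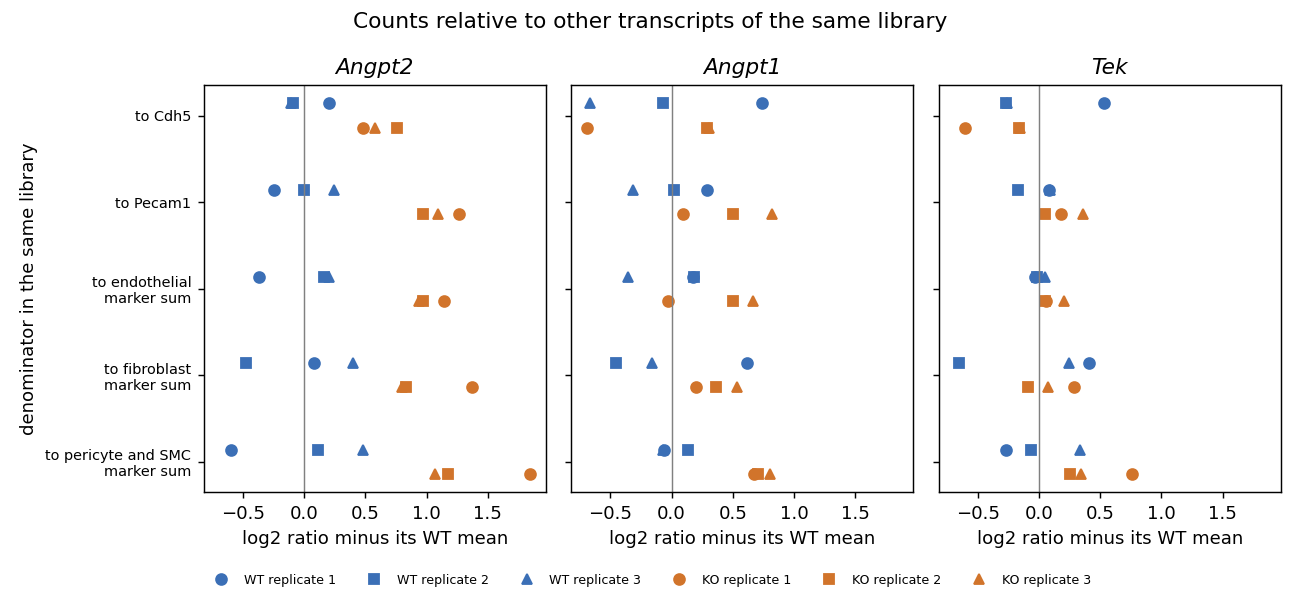
Log2 ratio of Angpt2, Angpt1 and Tek counts to 5 denominators of the same library (Cdh5, Pecam1 and 3 summed marker lists), with the WT mean of each ratio set to 0; blue points are WT and orange points leene-KO libraries. For Angpt2 the KO points lie to the right of the WT points in all 5 rows, for Angpt1 only in the row of the pericyte and smooth muscle sum, and for Tek in none.

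The receptors overlapped between the groups. Tek (ENSMUSG00000006386, chr4:94739289-94874976, plus strand) was at 102.5, 120.4 and 192 CPM in WT and 197, 121 and 179 CPM in KO. WT replicate 3 and KO replicate 1 were the highest, and a WT and a KO library (replicates 2) were nearly equal. The fitted log2 fold change, 0.26 with a standard error of 0.28, had an adjusted p of 0.747 in edgeR's quasi-likelihood test. As a fold, its 95% interval spanned 0.760 to 1.88. The log2 value was 0.079 without WT replicate 1, 0.13 without WT replicate 2, 0.093 without KO replicate 1, 0.41 without KO replicate 2 and 0.55 without WT replicate 3. Tie1 (ENSMUSG00000033191, chr4:118471191-118490061, minus strand) was at 69.9, 85.8 and 161 CPM in WT and 139.9, 87.4 and 117 CPM in KO. The same libraries were high and low as for Tek. KO exceeded WT by 0.12 on the log2 scale (standard error 0.33, 95% interval -0.63 to 0.88, adjusted p = 0.905, edgeR), and this value turned negative in fits without WT replicate 1 (-0.10), without WT replicate 2 (-0.040) and without KO replicate 1 (-0.066).

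Likeness between genes was measured as the root mean square (RMS) difference of log2 CPM over the 6 libraries, after each gene was centered on its own mean. Tek and Tie1 differed by 0.11, Tek and Svep1 by 0.13, Tek and Pecam1 by 0.16, and Tek and Ptprb by 0.17. Angpt2 was nearest to Cdh5, at 0.33, and farthest from Foxo1, at 0.80. All genes of a library share its depth and cell makeup, which differed between libraries, so these values only describe the 6 libraries. Per length, Tie1 was at 0.654, 0.682 and 0.803 of the level of Tek in WT and 0.681, 0.693 and 0.629 in KO, a narrow range in which the groups overlapped. Among 11614 other genes with a mean log2 CPM above 1, Acvrl1, an EC receptor of the BMP family, was nearest to Tek with 0.0525, followed by Tbx3os1 with 0.0551 and Scarf1 with 0.0838, beside a median of 0.432. Nearest to Angpt1 were Ints6l with 0.1002, Gm21092 with 0.103 and Slc35d2 with 0.105, beside a median of 0.408.

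Ptprb (ENSMUSG00000020154, chr10:116301374-116389538, plus strand) was the most abundant of the genes, at 451, 461 and 643 CPM in WT and 602, 419.7 and 586 CPM in KO. The groups overlapped fully, with WT replicate 3 the highest and KO replicate 2 the lowest. The log2 fold change was 0.048 (standard error 0.24, 95% interval -0.51 to 0.61, adjusted p = 0.954 in edgeR's quasi-likelihood test). It was -0.086 with total counts as library sizes and -0.13 with EC marker counts, scalings that also moved the median of all genes from 0.033 to -0.13 and -0.16. Ptprb per Tek was 1.74, 1.51 and 1.33 in WT and 1.21, 1.37 and 1.30 in KO (per length), and the groups overlapped (exact permutation p = 0.2).

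Foxo1 (ENSMUSG00000044167, chr3:52268336-52353221, plus strand) had the lowest coefficient of variation of the 9 genes in both groups. It was at 66.2, 60.8 and 66.0 CPM in WT and 56.0, 56.3 and 70.0 CPM in KO, with KO replicate 3 above and the other KO libraries below all WT libraries. It was 4.80% in WT and 13.1% in KO. The log2 fold change was -0.082 (standard error 0.14, 95% interval -0.40 to 0.24, adjusted p = 0.837, edgeR). Activity of the protein is set by phosphorylation, which these counts do not show.

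Svep1 (ENSMUSG00000028369, chr4:58042442-58206859, minus strand) was at 5.75, 6.72 and 10.6 CPM in WT and 11.8, 6.80 and 12.9 CPM in KO. KO replicate 2 lay within the WT range, at the level of WT replicate 2. The log2 fold change was 0.46 (standard error 0.31, 95% interval -0.26 to 1.18, adjusted p = 0.619 in edgeR's quasi-likelihood test). It was 0.28 without WT replicate 1 or KO replicate 3 and 0.73 without WT replicate 3. Relative to the EC marker sum the groups did not overlap (difference of 0.26 on the log2 scale, exact permutation p = 0.1), and relative to Cdh5 or Pecam1 they did. The sum of 6 lymphatic EC genes was 186 to 413 CPM in WT and 162 to 249.5 CPM in KO, and the groups overlapped. Lyve1, singled out after its values were seen, made up 82.8% of that sum and had a log2 fold change of -0.55, whereas 4 of the 6 genes were above 0, the median was 0.30 and 0 had an unadjusted p under 0.05 (edgeR).

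Of the ANGPTL genes, Angptl2 (ENSMUSG00000004105, chr2:33216069-33247717, plus strand) was at 6.78, 18.8 and 16.0 CPM in WT and 22.9, 18.4 and 26.6 CPM in KO. WT replicate 1 was far below the other libraries, and KO replicate 2 was just below WT replicate 2. The log2 fold change was 0.71 (standard error 0.35, 95% interval -0.10 to 1.53, adjusted p = 0.517, edgeR), and it was 0.37 without WT replicate 1 and 0.98 without WT replicate 2. Relative to the fibroblast marker sum, which was likewise lowest in WT replicate 1, Angptl2 was at -6.18, -6.0 and -6.01 on the log2 scale in WT. In KO it was at -5.49, -5.48 and -5.34, with little spread and no overlap between the groups (difference of 0.63, exact permutation p = 0.1). Relative to the other denominators, the groups overlapped for Cdh5 (0.23, exact p = 0.5), Pecam1 (0.73, exact p = 0.2) and the EC marker sum (0.64, exact p = 0.2), and not for the pericyte and smooth muscle sum (0.99, exact p = 0.1). The fibroblast and pericyte denominators were added after the data were seen. Angptl2 lies within the span of Ralgps1 on the opposite strand.

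Angptl6 (ENSMUSG00000038742, chr9:20873809-20879727, minus strand) was near the limit of detection, with 26, 4 and 12 counts in WT and 9, 10 and 8 counts in KO. This corresponded to 0.636, 0.117 and 0.561 CPM in WT and 0.387, 0.368 and 0.276 CPM in KO. The WT libraries held both the highest and the lowest value. No difference was detected (exact permutation p = 0.8 on log2 of CPM plus 0.5, where 0.1 is the lowest possible).

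**Figure D4:**
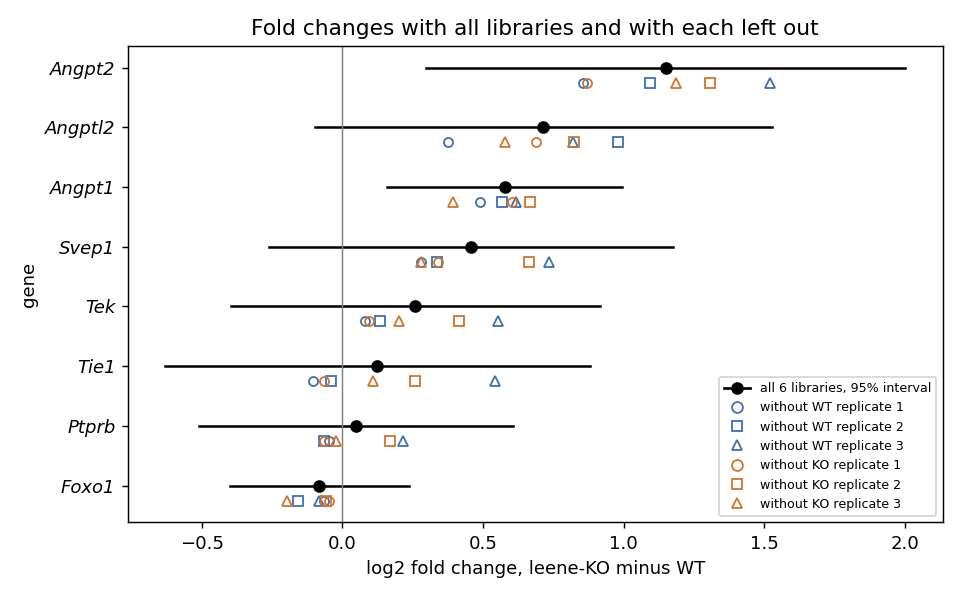
Log2 fold change between leene-KO and WT for the 8 genes tested; black points and lines are the estimates and 95% intervals from all 6 libraries (edgeR), and open symbols are estimates with 1 library left out. The intervals of Angpt2 and Angpt1 lie above 0, and for Tie1 and Ptprb the estimates fall on both sides of 0.

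Genes around the pathway were read from 5 lists with 65 genes in all, of which 63 were tested. The quasi-likelihood test called 0 of them, while at an unadjusted p under 0.05 KO was higher for 6 and lower for 2. The groups did not overlap for 7 genes that were higher and 4 that were lower, and the median log2 fold change was 0.039. Against the background of all genes tested (5.62% and 4.68% at an unadjusted p under 0.05, 8.59% and 9.2% without overlap), these shares are near the background, and no difference from it was tested. The median log2 fold change over all genes tested was 0.033, and the share of them above 0 was not counted.

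Of 6 other ANGPT and ANGPTL genes, 4 were tested and none was called, 0 of them at an unadjusted p under 0.05, and the median log2 fold change was 0.25. It was -0.038 with limma-voom, -0.014 with EC marker scaling, -0.97 when 10 counts were required in every library, and 0.060 without WT replicate 1 to 0.77 without WT replicate 2. EC marker scaling moved the median of all genes tested from 0.033 to -0.16. Angptl4, an inhibitor of lipoprotein lipase that is induced by fasting and hypoxia, was at 7.31, 29.8 and 14.7 CPM in WT and 9.06, 7.68 and 9.69 CPM in KO. WT replicate 2 stood far above the other libraries. The log2 fold change, -0.97 with a standard error of 0.45 (adjusted p = 0.502, edgeR), was -0.34 without it. Angptl8 had 0, 35 and 16 counts in WT and 15, 38 and 22 counts in KO, and the groups overlapped.

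The Tie2 signaling list held adaptors, kinases and FOXO factors downstream of Tek. All 20 genes were tested, with 8 above 0 and a median log2 fold change of -0.061, which was 0.017 without WT replicate 1. Grb14, an adaptor that binds activated Tek, was at 14.7, 17.0 and 19.3 CPM in WT and 25.7, 24.8 and 24.2 CPM in KO. The groups did not overlap, and the fitted log2 difference was 0.55 (standard error 0.14, adjusted p = 0.286, edgeR). Foxo3, a relative of Foxo1, was at 47.9, 50.8 and 37.6 CPM in WT and 37.0, 34.2 and 37.1 CPM in KO. edgeR put its log2 fold change at -0.33 (standard error 0.14, adjusted p = 0.493).

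Known targets of FOXO1 made up the next list, with 18 genes tested, 14 above 0 and a median log2 fold change of 0.16. At an unadjusted p under 0.05, 3 were higher, against 5.62% of all genes tested, and 1 lower, against 4.68%. None was called, and no difference from these shares was tested. Sesn1, a stress-induced regulator of mTORC1, was at 17.0, 14.9 and 15.6 CPM in WT and 20.4, 25.2 and 24.6 CPM in KO. The difference was 0.56 on the log2 scale (standard error 0.14, adjusted p = 0.285, edgeR). Pik3ip1, an inhibitor of PI3K, was at 4.33, 10.5 and 7.49 CPM in WT and 16.9, 14.5 and 13.9 CPM in KO. edgeR put its log2 fold change at 1.02 (standard error 0.30, adjusted p = 0.355). Without WT replicate 2 its adjusted p was 0.0321 (edgeR), in a fit that called 789 of 14950 genes. The median of the list was -0.024 with total counts as library sizes and -0.050 with EC marker counts. These scalings also moved the median of all genes tested from 0.033 to -0.13 and -0.16.

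Among 12 junction partners and regulators of the Tie system 0 were called. Their median log2 fold change was 0.059, against -0.12 with total counts as library sizes, -0.16 with EC marker scaling and -0.073 without WT replicate 2. The total-count and EC marker scalings moved the median of all genes tested from 0.033 to -0.13 and -0.16. Klf2, a flow-induced transcription factor of ECs, was at 291, 266 and 254 CPM in WT and 121, 124 and 145 CPM in KO. The fitted log2 difference was -1.06 (standard error 0.16, adjusted p = 0.0852 in edgeR's quasi-likelihood test), and DESeq2 gave an adjusted p of 8.93e-08. Kdr, the VEGF receptor that Ptprb also dephosphorylates, was at 93.3, 108 and 138 CPM in WT and 264, 160.5 and 195 CPM in KO. Each KO value was above each WT value, and the log2 difference was 0.87 (standard error 0.24, adjusted p = 0.313, edgeR).

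Of 9 receptors and partners of ANGPTL proteins and Svep1, 6 were above 0, 0 were called and the median log2 fold change was 0.33, which was 0.036 without WT replicate 1 and -0.042 without KO replicate 1. Pear1, a receptor of Svep1, was at 8.10, 10.1 and 11.7 CPM in WT and 14.8, 10.6 and 17.3 CPM in KO. The difference was 0.52 on the log2 scale (standard error 0.22, adjusted p = 0.484, edgeR). Itgav, the integrin alpha V subunit, was at 17.9, 58.9 and 30.5 CPM in WT and 55.1, 56.7 and 48.3 CPM in KO (log2 fold change 0.58, standard error 0.38, adjusted p = 0.609). WT replicate 2 lay among the KO libraries for Itgav, and without it the gene was called at 1.11 (adjusted p = 0.0393, edgeR). That fit called 789 of 14950 genes.

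**Figure D5:**
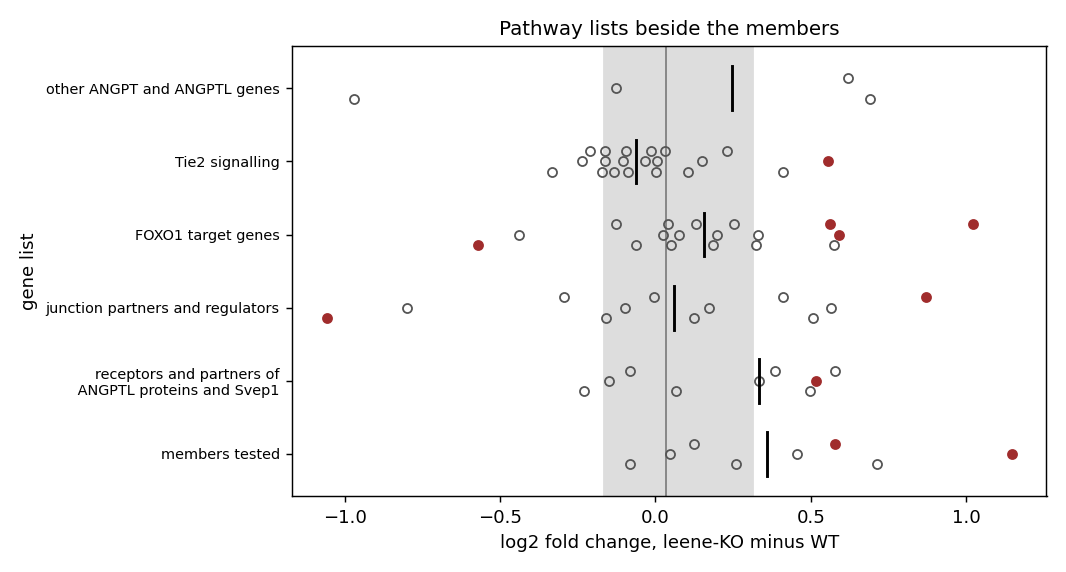
Log2 fold change between leene-KO and WT of every tested gene of the 5 pathway lists and of the 8 genes tested here; filled red points have an unadjusted p under 0.05 (edgeR), vertical bars are list medians, and the grey band spans the quartiles of all 14625 genes, -0.17 to 0.31, with their median as a line. List medians lie between -0.061 and 0.33, and that of the 8 genes is 0.36.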

How the data were processed

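The libraries were polyA-enriched and strand-specific (KAPA mRNA HyperPrep), 1 deposited table per library. Values are raw counts per gene as deposited by the authors, made per the file headers with featureCounts 2.0.0 on uniquely aligned reads, reverse strand, with an Ensembl 84 gene set (GRCm38). The submitters' processing notes name STAR 2.5.4b. Reads overlapping several genes were not counted, and no member shared exon bases with another gene on its strand.

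Symbols came from GENCODE names and matched 47224 of 47729 genes. Genes were filtered with filterByExpr, scaled by TMM and tested with glmQLFit and glmQLFTest (default options) of edgeR 4.0.16 in R 4.3.3. Alternatives used DESeq2 1.42.0 and limma 3.58.1. Standard errors were taken from the fold change and the F statistic. The fit was tested on simulated data. Ratios added 0.5 to both counts, and log2 CPM used a prior count of 2. Exact permutation tests were two-sided. No pair of libraries held identical counts.

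The members and lists were chosen with earlier results of these data known, and so were the fibroblast and pericyte denominators and the GGAA motif, the latter after the longer motifs had been searched. Named genes were the members, in each list the genes called or else the 2 with the lowest p, and the 3 nearest to Tek and Angpt1. Tagln, Acta2, Pdgfrb, Cspg4, Notch3, Rgs5 and Lyve1 were added after their values were seen. Marker lists of alveolar type I (628 to 1584 CPM over the libraries), airway (15350 to 56740) and macrophage genes (116 to 396) were summed as well.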

Additional observations from a re-analysis of the deposited data

How the results depend on the processing

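The number of the 9 genes called was 0 under every alternative run, some of which, such as limma-voom, did not test Angptl6. Angpt2, Angpt1, Angptl2, Svep1, Tek and Foxo1 kept the sign of their log2 fold change in all runs. Tie1 ran from -0.10 to 0.54 and Ptprb from -0.067 to 0.21 with each library left out. Ptprb was -0.086 with total counts as library sizes and -0.13 with EC marker counts. The cause was not tested. The unadjusted p of Angpt2 ran from 0.00286 to 0.0591 (edgeR) with each library left out, the highest being without KO replicate 1, and that of Angpt1 from 0.00991 to 0.0563, the highest being without KO replicate 3.

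Over all genes, the 16 calls became 185 with DESeq2, 26 with limma-voom, 211 with the likelihood ratio test, 26 with RLE, 31 with upper-quartile, 123 with total-count and 48 with EC marker scaling, and 152 without a filter. With total counts 61 of the calls were higher and 62 lower in KO, against 5 and 11. Leaving out libraries gave from 0 to 789 calls. The 789 came without WT replicate 2, and 0 without KO replicate 1, 2 or 3, when edgeR gave 986 to 1112 genes an unadjusted p under 0.05.

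Of the pathway lists, DESeq2 and the likelihood ratio test called 1 gene (Klf2) and the test without a filter 2 (Klf2 and Pik3ip1). Leaving out libraries gave 0 to 6, the latter without WT replicate 2 (Itgav, Insr, Klf2, Itga9, Pik3ip1 and Adam17). That fit called 789 of 14950 genes, 658 of them higher in KO.

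The count of genes whose ratio to Cdh5 did not overlap, 1 (Angpt2), was 2 with the EC marker sum (also Svep1), 2 with the fibroblast sum (also Angptl2) and 3 with the pericyte and smooth muscle sum (also Angpt1 and Angptl2). It was 1 to 3 with libraries left out, where Tie1 was added without WT replicate 2, Ptprb and Foxo1 without WT replicate 3, and Angptl2 without KO replicate 1. The share of all genes whose ratios to these denominators do not overlap was not counted, so these counts have no background to be read against.

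Replicate numbers come from the sample titles, and whether same-numbered libraries of the 2 groups belong together is not settled. Deviations of same-numbered libraries from their group means correlated at -0.081, 0.219 and 0.011. These values cannot exclude a pairing, because deviations of 3 libraries sum to 0 within each group. With the replicate number as a block, 0 genes were called by edgeR (1776 at an unadjusted p under 0.05), and the log2 fold change of Angpt2 was 1.18 (adjusted p = 0.372). Of the same-numbered pairs, only replicates 2 correlated best with each other. WT replicate 1 and KO replicate 3 (0.192) also did so, as did WT replicate 3 and KO replicate 1 (0.194). Angptl6 had low counts, and the filter removed it.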
